A study of Homo sapiens with 14 samples.

Results

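The genes described here encode the collagens, the laminins and 14 other structural proteins of the extracellular matrix and the basement membrane. They were taken as every gene named COL with 2 numbers around an A, or LAMA, LAMB or LAMC with a number, plus FN1, FBN1, FBN2, NID1, NID2, TNC, THBS1, THBS2, BGN, DCN, LUM, VCAN, HSPG2 and AGRN, through probe sets annotated to 1 gene. The array held 56 of them, 32 collagens, 10 laminins and 14 others, among 11963 genes with such a probe set. Each gene was read through the probe set with its highest mean. A filter on low signals left 37 of the 56, namely 21 collagens, 7 laminins and 9 others, among 7720 genes.

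The cells were U2OS ER-E2F1, a human osteosarcoma line. It stably expresses E2F1, a transcription factor of the cell cycle, fused to the hormone-binding part of the estrogen receptor, so that 4-hydroxytamoxifen (OHT) activates it. Every group carried ER-E2F1, the scrambled controls included. All cells were infected with a lentivirus for 24 h, kept in serum-free medium for a further 24 h, and then given fresh serum-free medium with 20 nM OHT or without OHT for 6 h. The groups with OHT were cells with the hairpin shFOXO707 (2 arrays), cells with the hairpin shFOXO33 (2 arrays) and cells with a scrambled sequence (4 arrays). The groups without OHT were shFOXO707 cells (1 array), shFOXO33 cells (1 array) and scrambled cells (4 arrays). Both hairpins target FOXO1 and FOXO3, transcription factors of the forkhead class. No label says that replicate arrays came from separate cultures, so the p-values measure the spread between these arrays, which may be technical, and the small number of arrays limits the precision. No group of cells without ER-E2F1 was given OHT.

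Collagens are triple helices of 3 chains. The fibrillar types (I, II, III, V and XI) form the fibres of bone, skin and tendon, and osteoblasts lay down mostly type I. Type IV collagen and the laminins, which are trimers of an alpha, a beta and a gamma chain, form the sheets of the basement membrane, where nidogen, perlecan and agrin join them. Matricellular proteins such as tenascin C and thrombospondin 1 bind this scaffold and alter how cells attach to it.

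The values are MAS5 signals, the summary brightness of a probe set on an array scaled to a common mean, and differences are on the log2(signal + 16) scale. The signal depends on the probe set, so levels of different genes are not set against each other. A gene is said to be called, or to rise or fall, where limma gave an adjusted p below 0.05 over all 7720 genes (Benjamini-Hochberg, two-sided). Arrays of 1 group correlated at 0.992 to 0.994 over all genes, and arrays of different hairpins under the same treatment at 0.956 to 0.958. The median signal of an array was 114 to 119 with OHT and 137 to 143 without OHT. FOXO3 averaged 810 in shFOXO707 cells and 307 in shFOXO33 cells with OHT, against 1793 in scrambled cells with OHT, and FOXO1 averaged 236 and 163, against 501. Without OHT, FOXO3 was 274 (shFOXO707) and 138 (shFOXO33), against a mean of 449 in scrambled cells. FOXO1 without OHT was 39.1 and 49.2, against 103. Both signals were thus higher in scrambled cells with OHT than without, and in shFOXO707 cells with OHT they exceeded those of scrambled cells without OHT. Of the markers of osteoblasts and mesenchymal cells, VIM, THY1, ALPL and PDGFRB passed the filter, whereas RUNX2 and IBSP, which define osteoblasts, did not. No endothelial marker (0 of 5) and no blood marker (0 of 5) passed it. Of 5 neural markers NEFL and OLIG2 passed. The summed signal of the list was 4614 to 4803 in scrambled cells with OHT, against 2844 to 3164 in scrambled cells without OHT. That sum was mostly NEFL, which ranged from 2343 to 4596 over all arrays, against 52.3 to 147 for OLIG2. The neural markers did not move together: of the 2 past the filter, 1 was called higher and 1 lower with OHT in scrambled cells. The lower call was lost under the other scalings described below.

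Sequences around the start sites of COL15A1, COL4A1 and NID1 are given here, and a link between sequence and the response to OHT was not tested. The sequences below run from 250 bases before to 50 bases after a start of transcription, 5′ to 3′ on the gene's own strand, from RefSeq on GRCh38.p14. COL15A1 (chr9:98943657-98943956, plus strand) is shown because its signal moved most with OHT. COL4A1 (chr13:110307108-110307407, minus strand) is shown because it stands head to head with COL4A2, and the capitals mark the 226 bases that lie in the windows of both genes. NID1 (chr1:236065041-236065340, minus strand) is shown as an example of an E2F-type motif, which the capitals mark.
COL15A1: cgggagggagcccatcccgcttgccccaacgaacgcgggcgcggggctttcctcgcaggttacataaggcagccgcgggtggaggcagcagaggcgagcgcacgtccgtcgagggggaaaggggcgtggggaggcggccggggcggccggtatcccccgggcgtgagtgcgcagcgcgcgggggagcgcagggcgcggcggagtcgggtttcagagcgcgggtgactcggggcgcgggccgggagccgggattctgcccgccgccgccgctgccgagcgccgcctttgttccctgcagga
COL4A1: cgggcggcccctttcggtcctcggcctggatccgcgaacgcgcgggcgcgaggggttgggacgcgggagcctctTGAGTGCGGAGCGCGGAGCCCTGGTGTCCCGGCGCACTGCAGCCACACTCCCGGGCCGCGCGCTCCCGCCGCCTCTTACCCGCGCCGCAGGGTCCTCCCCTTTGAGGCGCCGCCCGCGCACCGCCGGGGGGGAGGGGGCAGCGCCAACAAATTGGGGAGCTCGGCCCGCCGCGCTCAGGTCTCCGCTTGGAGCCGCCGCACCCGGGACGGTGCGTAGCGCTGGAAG
NID1: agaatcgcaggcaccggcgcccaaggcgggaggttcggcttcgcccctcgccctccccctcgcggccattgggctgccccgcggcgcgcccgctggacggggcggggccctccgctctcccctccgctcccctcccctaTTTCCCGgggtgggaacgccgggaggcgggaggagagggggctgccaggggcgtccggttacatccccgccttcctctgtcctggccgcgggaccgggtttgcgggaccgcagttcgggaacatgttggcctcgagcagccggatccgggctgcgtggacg

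RefSeq gave 55 such windows for 42 of the 56 genes. The E2F letters TTTNNCG, with C or G for each N, were searched on both strands and occurred in 4 of the 55 windows (7.27%), against 8.67% of all 35116 windows of the table. The 4 genes were NID1, HSPG2, COL5A3 and COL11A2. The FOXO letters GTAAACA occurred in 0 of the 55 windows, against 3.42% of all windows. The COL15A1 window held neither set of letters. The starts of COL4A1 and COL4A2 on chromosome 13 are about 125 bases apart. COL4A3 and COL4A4 on chromosome 2 start about 417 bases apart and share 82 bases of their windows. COL4A5 and COL4A6 on chromosome X have starts about 378 bases apart and share 121 bases.

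**Figure D1:**
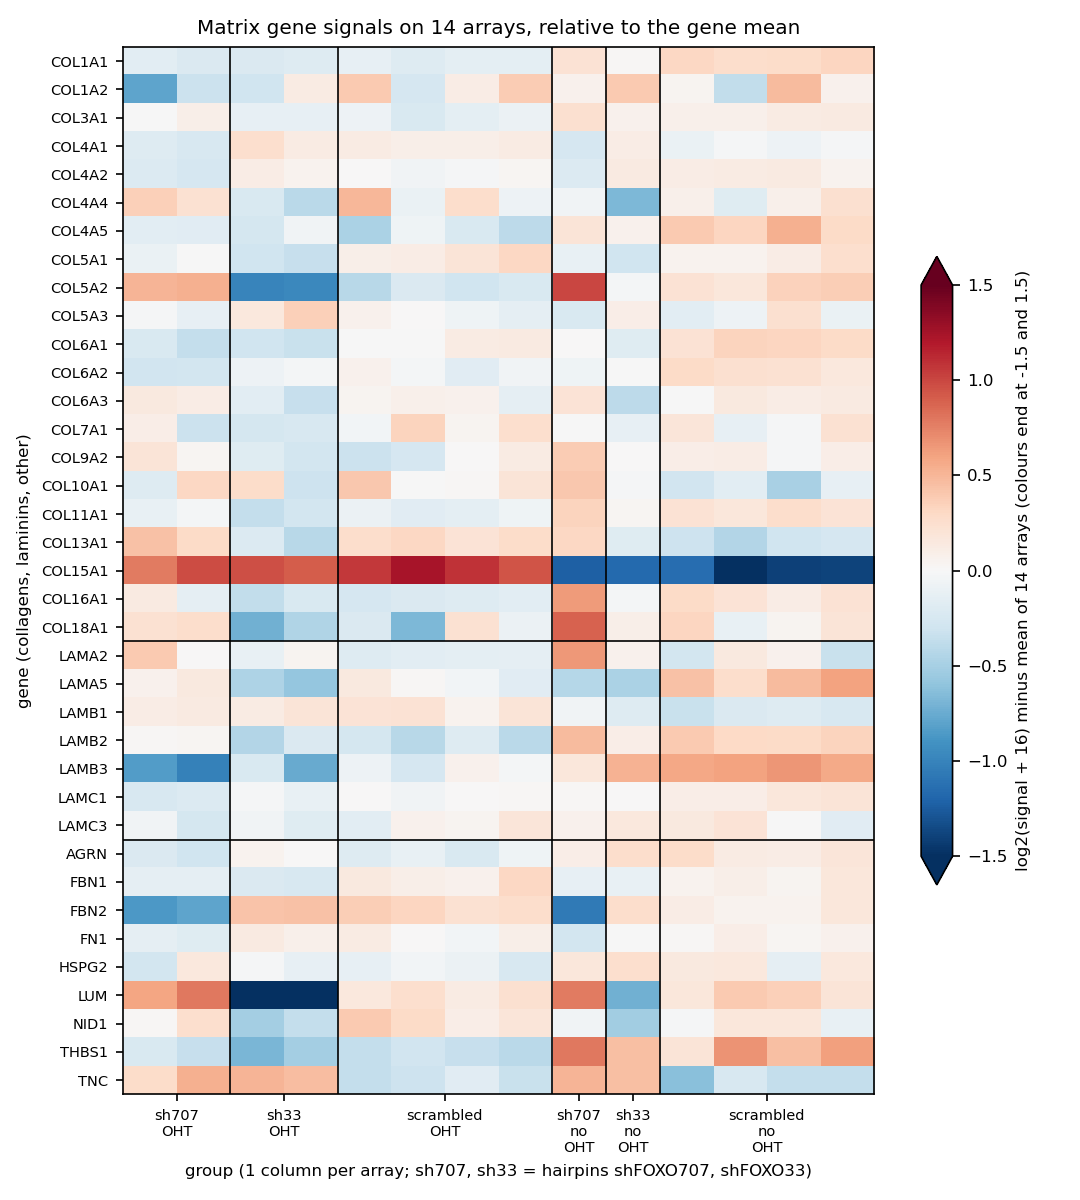
Signals of the 37 genes on each of the 14 arrays, as log2(signal + 16) minus the gene's mean over the arrays (colour), with genes down the page and arrays across in 6 groups. COL15A1 splits the arrays by OHT, whereas LUM, COL5A2 and FBN2 split the 2 hairpins under both treatments.

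OHT treatment of scrambled cells, all of which carried ER-E2F1, changed 17 of the 37 matrix genes when the hairpins were pooled in the fit. COL15A1, which encodes a collagen of the basement membrane zone, rose most, and COL13A1, LAMB1 and COL10A1 rose less. THBS1, LAMB3, COL4A5, LAMB2 and COL1A1 fell. Of the 37 genes, 4 were higher and 13 lower with OHT, 45.9% in all, against 70.5% of all 7720 genes (24% higher and 46.4% lower). Their median difference was -0.08, against -0.23 over all genes. Of the 4 osteoblast and mesenchymal markers past the filter, 0 were higher and 3 lower with OHT (median -0.55), and the summed signal of that list was 12628 to 14387 in scrambled cells with OHT, against 15642 to 17215 in scrambled cells without OHT. The ratio of 3′ to 5′ ACTB probe sets, a sign of RNA quality, was 1.6 to 1.74 in scrambled cells with OHT, against 1.5 to 1.59 in scrambled cells without OHT. It was 1.95 to 2.04 in shFOXO707 cells with OHT, against 1.64 without OHT, and 1.6 to 1.63 in shFOXO33 cells with OHT, against 1.49 without OHT. The part of the markers and of RNA quality in the response to OHT was not tested.

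The shift of all genes matters for these counts. OHT lowered the median of all genes by 0.23 on the log2 scale under the deposited scaling, which holds the trimmed mean of each array fixed. With median-centred arrays, 9 matrix genes were called higher and 5 lower, against 30.7% and 32.5% of all genes. With quantile normalization, 7 were called higher and 12 lower, against 28.7% and 37.8% of all genes. The 4 genes called higher, and THBS1, LAMB3, COL4A5, LAMB2 and COL1A1 among those called lower, were called in the same direction under all 3 scalings (23.6% and 30.9% of all genes were called higher and lower in that way). The other 8, LAMA5, COL16A1, COL11A1, AGRN, COL6A2, COL3A1, COL6A1 and LAMC1, were lower by 0.14 to 0.45 on the log2 scale and lost their calls under median centring, where LAMC1 turned to 0.05. COL16A1 and COL6A2 lost theirs under quantile normalization too, and the LAMC1 call was lost when any of 7 single scrambled arrays was left out (adjusted p up to 0.109).

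COL15A1 had signals of 250, 284, 254 and 230 in scrambled cells with OHT, against 42, 25, 32.4 and 32.7 in scrambled cells without OHT. All 4 arrays with OHT stood far above all 4 without. The log2 difference was 2.47 (SE 0.11, adjusted p = 3.09e-10). COL15A1 passed the filter through its OHT arrays, since its signals without OHT lie below the filter level of 79.1 and within the range of the 19 genes that were left out (1.01 to 104). The size of the difference therefore rests on a level without OHT that the array may not resolve. In knockdown cells it had 203 and 235 (shFOXO707) and 233 and 223 (shFOXO33) with OHT, against 38.5 (shFOXO707) and 41 (shFOXO33) without OHT. The groups again did not overlap, and the difference was 2.1 (SE 0.14, adjusted p = 2.94e-08).

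COL13A1 encodes a transmembrane collagen found at cell contacts. It had signals of 1163, 1201, 1115 and 1176 in scrambled cells with OHT, against 778, 709, 782 and 812 in scrambled cells without OHT. The groups did not overlap, and the difference was 0.59 (SE 0.16, adjusted p = 0.00496). In shFOXO707 cells its signals were 1317 and 1179 with OHT, against 1201 without OHT, and in shFOXO33 cells 839 and 723 with OHT, against 853 without OHT. In knockdown cells it was not called (-0.04, SE 0.2, adjusted p = 0.877). The other COL13A1 probe sets past the filter gave 0.23 (adjusted p = 0.226) and 0.7 (adjusted p = 0.00412) in scrambled cells. The rise was therefore not called in all of them.

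LAMB1, the beta chain of the widespread laminins, had 2025, 2049, 1827 and 2023 in scrambled cells with OHT, against 1389, 1518, 1538 and 1483 in scrambled cells without OHT. Every array with OHT stood above every array without. It rose by 0.41 (SE 0.06, adjusted p = 2.62e-05) and, in knockdown cells, by 0.26 (SE 0.07, adjusted p = 0.00656), a call that was lost without the shFOXO33 array without OHT (adjusted p = 0.0803). A second LAMB1 probe set gave 0.24 (adjusted p = 0.00644) in scrambled cells. COL10A1, a network collagen of growth-plate cartilage, lay near the filter level at 98.9 to 137 with OHT, against 66.3 to 90.5 without OHT, and rose by 0.41 (SE 0.17, adjusted p = 0.0399). Its call was lost when any of 4 single scrambled arrays was left out, with an adjusted p of up to 0.119.

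THBS1 encodes thrombospondin 1, which inhibits vessel growth and activates latent TGF-beta. It had 952, 1000, 957 and 918 in scrambled cells with OHT, against 1393, 1959, 1679 and 1876 in scrambled cells without OHT. The groups did not overlap, and the difference was -0.83 (SE 0.12, adjusted p = 2.88e-05). In knockdown cells it had 1036 and 956 (shFOXO707) and 751 and 849 (shFOXO33) with OHT, against 2120 (shFOXO707) and 1673 (shFOXO33) without OHT, a difference of -1.07 (SE 0.15, adjusted p = 3.18e-05). A second THBS1 probe set gave -0.9 (adjusted p = 1.01e-06) in scrambled cells and another gave -0.35 (adjusted p = 0.0329).

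Of the laminin chains, LAMB3 and LAMB2 fell under all 3 scalings. LAMB3 is the beta chain of the laminin that anchors epithelia. It had 736, 650, 811 and 755 in scrambled cells with OHT, against 1169, 1189, 1236 and 1159 in scrambled cells without OHT, a difference of -0.68 (SE 0.14, adjusted p = 0.000666). The groups did not overlap. In knockdown cells it had 426 and 374 (shFOXO707) and 658 and 452 (shFOXO33) with OHT, against 875 (shFOXO707) and 1118 (shFOXO33) without OHT, and fell by 1.06 (SE 0.17, adjusted p = 0.00014). Of the 7 epithelial markers EPCAM, KRT8 and KRT18 passed the filter and CDH1, which defines epithelia, did not. The summed signal of all 7 was 5257 to 5557 in scrambled cells with OHT, against 6901 to 7421 in scrambled cells without OHT. The markers did not move together: of the 3 past the filter, 1 was called higher and 1 lower. With median-centred arrays 1 was higher and 0 lower. The part of these markers in the LAMB3 result was not tested.

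LAMB2, the beta chain found in kidney and synaptic basement membranes, had 382, 341, 400 and 343 in scrambled cells with OHT, against 610, 570, 566 and 584 in scrambled cells without OHT. The groups were far apart, and the difference was -0.65 (SE 0.11, adjusted p = 0.000152). COL4A5, a type IV chain of mature basement membranes, had 190, 258, 228 and 202 in scrambled cells with OHT, against 360, 342, 398 and 333 in scrambled cells without OHT. It fell by 0.67 (SE 0.1, adjusted p = 3.08e-05), with no overlap. In knockdown cells the difference was -0.44 for LAMB2 (adjusted p = 0.0134) and -0.29 for COL4A5, which was not called (adjusted p = 0.0539).

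COL1A1, the main chain of type I collagen, averaged 7428 ± 169 in scrambled cells with OHT and 10116 ± 197 in scrambled cells without OHT (SD, n = 4 each). It fell by 0.44 (SE 0.04, adjusted p = 6.38e-07) in scrambled cells and by 0.31 (SE 0.05, adjusted p = 0.000209) in knockdown cells. The other COL1A1 probe sets past the filter gave 0.01 (adjusted p = 0.9) and -0.32 (adjusted p = 0.0602) in scrambled cells, so the fall was not seen in all of them. The partner chain COL1A2 was not called (0.11, SE 0.22, adjusted p = 0.664).

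COL5A2, a chain of the fibrillar type V collagen, was lower on every scrambled array with OHT (919, 1054, 999 and 1048) than on every scrambled array without OHT (1430, 1385, 1568 and 1588). Its difference of -0.56 was not called when the hairpins were pooled (SE 0.33, adjusted p = 0.142). With the 6 groups kept apart, the same difference had an SE of 0.06 and an adjusted p of 1.22e-07. The second COL5A2 probe set was called with the hairpins pooled (-0.52, SE 0.18, adjusted p = 0.0268). The pooled fit shares 1 estimate of the spread, and the gap between the 2 hairpins enters it. With the 6 groups kept apart, other genes were also called with OHT in scrambled cells. COL4A1 (0.16, adjusted p = 0.000729), FBN2 (0.2, adjusted p = 0.000467) and NID1 (0.19, adjusted p = 0.0427) were higher. COL4A2 was lower (-0.11, adjusted p = 0.00493). The second probe sets of these genes, with the hairpins pooled, gave 0.53 for FBN2 (adjusted p = 0.00502), 0.06 for COL4A1 (adjusted p = 0.784), 0.01 for NID1 (adjusted p = 0.969) and -0.37 for COL4A2 (adjusted p = 0.0508).

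**Figure D2:**
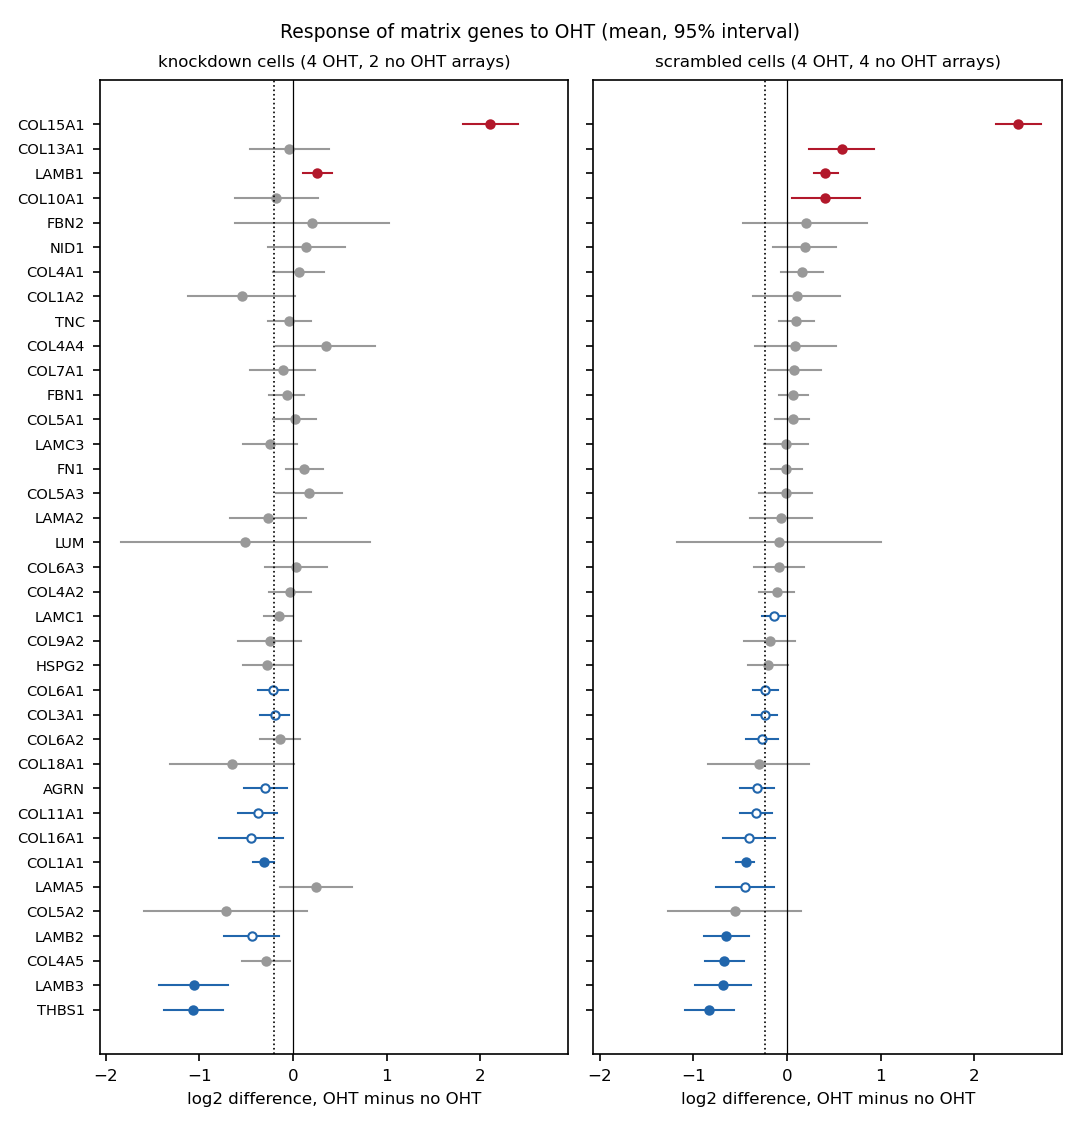
Log2 difference, OHT minus no OHT, for each of the 37 genes in knockdown cells (left) and scrambled cells (right), with 95% intervals from the fit with hairpins pooled. Filled red and blue points were called higher and lower under all 3 scalings, open blue points lower under the deposited scaling but not under all 3, grey points were not called, and the dotted line is the median of all genes (-0.2 and -0.23).

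In knockdown cells 2 matrix genes were higher and 9 lower with OHT, against 20.6% and 37.3% of all genes. With the 6 groups kept apart 21 were called (5 higher and 16 lower), against 73% of all genes. COL15A1 and LAMB1 were called higher, and THBS1, LAMB3 and COL1A1 lower, under all 3 scalings. LAMB2, COL16A1, COL11A1, AGRN, COL6A1 and COL3A1 were lower by 0.19 to 0.45 and lost their calls under at least 1 other scaling. Each of these 6 calls was also lost when a single knockdown array was left out, with a highest adjusted p per gene of 0.0955 (COL11A1) to 0.513 (COL16A1), and the shFOXO707 array without OHT was such an array for all but AGRN. The median difference was -0.18, against -0.2 over all genes. Of the 17 genes called in scrambled cells, 14 had the same sign in knockdown cells (82.4%), against 98.4% of the genes called among all 7720. The 3 exceptions were COL13A1, COL10A1 and LAMA5.

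The difference between the 2 responses to OHT was itself tested as an interaction. With the hairpins pooled, limma called 0 of the 37 genes, against 0.35% of all genes. Of the 37, 4 had an unadjusted p below 0.05, and the share of all genes below that cut is not given here. With the 6 groups kept apart, 3 genes were called: COL13A1 at -0.62 (SE 0.09, adjusted p = 0.000764), LUM at -0.42 (SE 0.1, adjusted p = 0.0139) and LAMA5 at 0.69 (SE 0.12, adjusted p = 0.00169). That fit called 9.69% of all genes. A negative value means a lower response to OHT under knockdown, so the rise of COL13A1 with OHT was smaller in knockdown cells in that fit. The response of COL13A1 was 0.05 in shFOXO707 cells and -0.13 in shFOXO33 cells, against 0.59 in scrambled cells. It rests on 1 array per hairpin without OHT. Those arrays, at 1201 (shFOXO707) and 853 (shFOXO33), already lay above the 709 to 812 of scrambled cells without OHT. The response of LUM was -0.08 in shFOXO707 cells and -0.93 in shFOXO33 cells, against -0.08 in scrambled cells, so its value came from shFOXO33 cells, with 1 array without OHT.

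LAMA5, the alpha chain of the laminins of most adult basement membranes, had 1144, 1045, 1005 and 915 in scrambled cells with OHT, against 1399, 1241, 1436 and 1570 in scrambled cells without OHT. In shFOXO707 cells it had 1075 and 1142 with OHT, against 762 without OHT. In shFOXO33 cells it had 746 and 687 with OHT, against 740 without OHT. The knockdown arrays without OHT lay below all scrambled arrays without OHT, and the 2 hairpins parted with OHT. Each hairpin had 1 array without OHT, so these responses rest on single arrays.

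Knockdown of FOXO1 and FOXO3 raised TNC, while the count of other matrix genes called with OHT depended on how the hairpins were treated. With OHT and the hairpins pooled, 1 of the 37 genes was higher (2.7%) and 4 were lower (10.8%), against 14.7% and 8.01% of all genes. The median difference was -0.1, against 0.04 over all genes. TNC was the gene called higher, and LAMB3, COL5A1, COL6A1 and FBN1 were called lower. With the 6 groups kept apart and the hairpin effects averaged, 13 were called (1 higher and 12 lower), against 47.2% of all genes. Taken singly, shFOXO33 gave 32.4% of the matrix genes lower, against 21.5% of all genes, and shFOXO707 gave 29.7%, against 17.2%. The 5 calls of the pooled fit held under the 3 scalings, as did calls of 11% (higher) and 7.38% (lower) of all genes.

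TNC, the gene of tenascin C, had 1495 and 1791 in shFOXO707 cells and 1768 and 1711 in shFOXO33 cells with OHT, against 966, 994, 1099 and 982 in scrambled cells with OHT. Every knockdown array stood above every scrambled array. The difference was 0.73 (SE 0.09, adjusted p = 8.43e-05). Without OHT it had 1768 in shFOXO707 cells and 1701 in shFOXO33 cells, against 796, 1046, 964 and 963 in scrambled cells, a difference of 0.88 (SE 0.11, adjusted p = 0.000315). OHT itself did not move TNC past the test in scrambled cells (0.1, SE 0.09, adjusted p = 0.297).

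LAMB3 fell by 0.64 with knockdown and OHT (SE 0.14, adjusted p = 0.0057), from the arrays given above. The highest shFOXO33 array, at 658, overlapped the lowest scrambled array, at 650. Without OHT the difference was -0.26 and was not called (adjusted p = 0.426). The summed epithelial markers were 3589 to 3683 in shFOXO707 cells and 5941 to 6292 in shFOXO33 cells, against 5257 to 5557 in scrambled cells, all with OHT. Of the 3 markers past the filter, 1 was called higher and 2 lower with shFOXO707, and 2 higher and 1 lower with shFOXO33. Their part in the LAMB3 result was not tested.

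COL5A1, the other main chain of type V collagen, had 2252 and 2416 in shFOXO707 cells and 1960 and 1893 in shFOXO33 cells with OHT, against 2561, 2601, 2770 and 2993 in scrambled cells with OHT. No array overlapped, and the difference was -0.36 (SE 0.09, adjusted p = 0.00916). Its 2 other probe sets past the filter gave 0.07 and -0.07 and were not called, so the change was seen through 1 probe set. COL6A1, a chain of the beaded type VI collagen, averaged 1262 in shFOXO707 cells and 1244 in shFOXO33 cells with OHT (n = 2 each), against 1616 ± 87.4 in scrambled cells with OHT (SD, n = 4). It fell by 0.36 (SE 0.06, adjusted p = 0.00117) with OHT and by 0.38 (SE 0.08, adjusted p = 0.00818) without OHT. FBN1, the fibrillin of adult microfibrils, averaged 324 in shFOXO707 cells and 303 in shFOXO33 cells with OHT (n = 2 each), against 399 ± 33.5 in scrambled cells with OHT (SD, n = 4), a difference of -0.33 (SE 0.07, adjusted p = 0.00549).

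Without OHT, 1 gene was higher and 2 were lower with knockdown, against 4.84% and 2.97% of all genes. These were TNC, and LAMA5 and COL6A1. With the 6 groups kept apart and the hairpin effects averaged, 15 were called (4 higher and 11 lower), against 30.6% of all genes. LAMA5 had 762 in shFOXO707 cells and 740 in shFOXO33 cells, against the 1241 to 1570 of scrambled cells, a difference of -0.89 (SE 0.18, adjusted p = 0.00818). With OHT its pooled difference was -0.2 and was not called (adjusted p = 0.355). The COL6A1 call without OHT was lost without the shFOXO33 array (adjusted p = 0.0699).

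**Figure D3:**
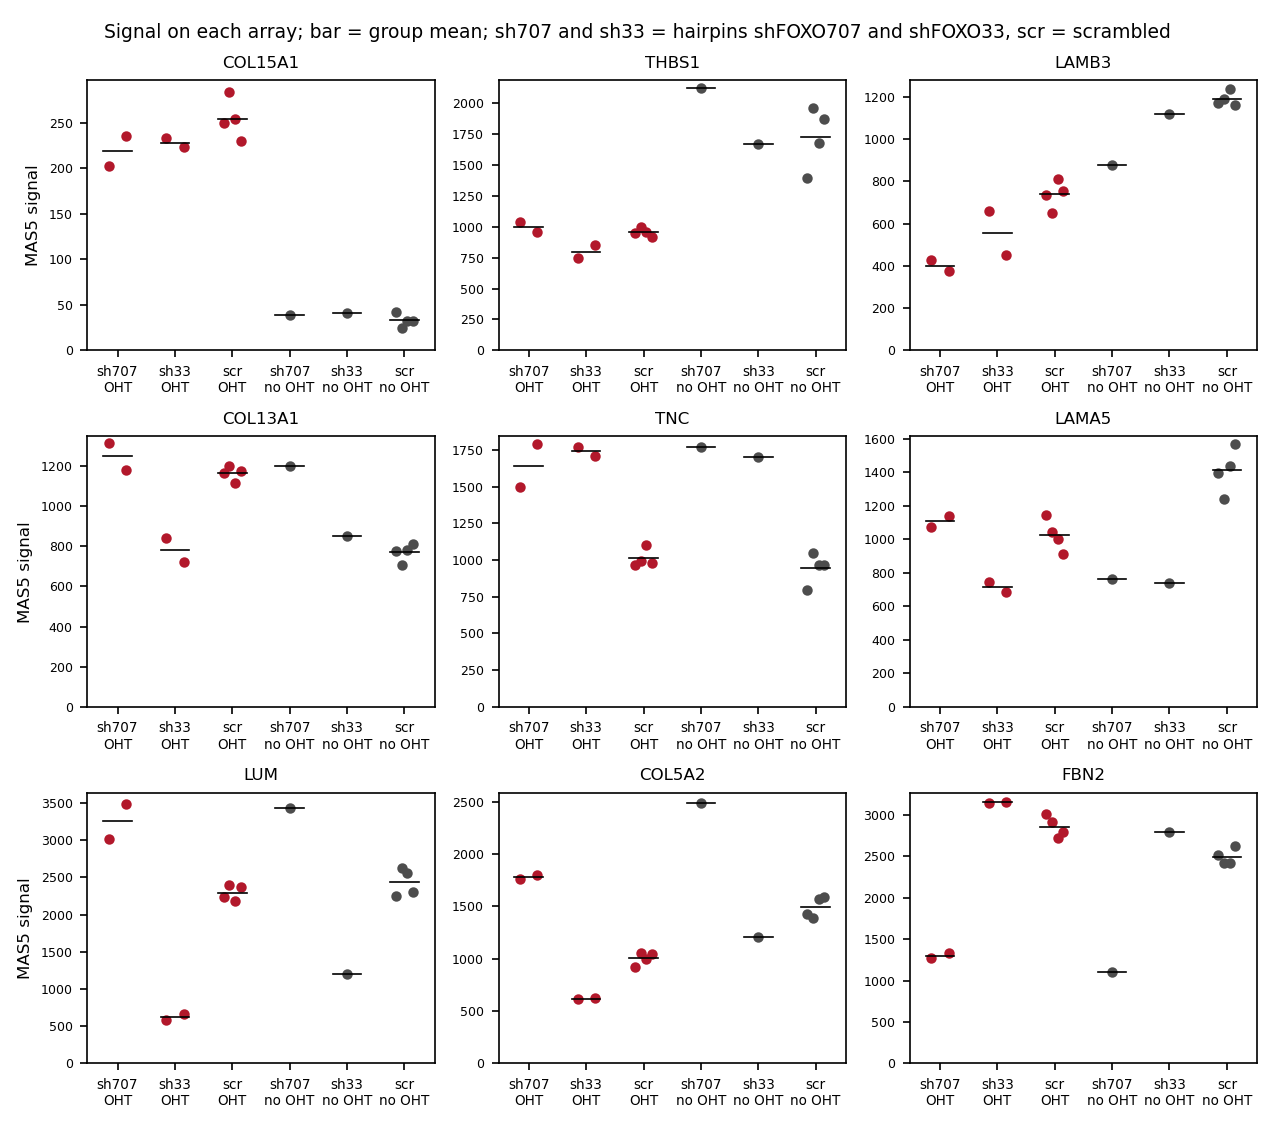
MAS5 signal on each array (points, vertical axis from 0) and group mean (bar) for 9 genes, with red for OHT and grey for no OHT. COL15A1, THBS1 and LAMB3 part by OHT, TNC parts knockdown from scrambled cells, and LUM, COL5A2 and FBN2 part the 2 hairpins.

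The 2 hairpins differed from each other in 23 of the 37 matrix genes, among them LUM, COL5A2 and FBN2. With OHT, shFOXO707 minus shFOXO33 was called higher in 15 and lower in 8 of the 37 genes, 62.2% in all, against 43.5% of all genes (22.1% higher and 21.4% lower). Of these, 13 and 8 held under all 3 scalings, against 20.1% and 20.9% of all genes. Collagens made up 10 of the 15 higher and 3 of the 8 lower. Both hairpins are compared below with the same 4 scrambled arrays, so the 2 differences of a gene share those arrays. The ACTB ratio was 1.95 to 2.04 in shFOXO707 cells and 1.6 to 1.63 in shFOXO33 cells with OHT, against 1.6 to 1.74 in scrambled cells with OHT, and its part in these differences was not tested.

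LUM encodes lumican, a small proteoglycan that spaces collagen fibrils. It had 3014 and 3488 in shFOXO707 cells and 586 and 664 in shFOXO33 cells with OHT, against 2231, 2393, 2175 and 2368 in scrambled cells with OHT. The shFOXO707 arrays stood above and the shFOXO33 arrays below all scrambled arrays. The difference from scrambled cells was 0.5 with shFOXO707 (SE 0.08, adjusted p = 0.0001) and -1.85 with shFOXO33 (SE 0.08, adjusted p = 4.87e-11). Without OHT it had 3433 in shFOXO707 cells and 1205 in shFOXO33 cells, against 2249, 2626, 2561 and 2300 in scrambled cells, which is the same order.

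COL5A2 had 1761 and 1795 in shFOXO707 cells and 610 and 622 in shFOXO33 cells with OHT, against the 919 to 1054 of scrambled cells. The difference was 0.81 with shFOXO707 (SE 0.07, adjusted p = 1.76e-07) and -0.69 with shFOXO33 (SE 0.07, adjusted p = 7.16e-07). Its second probe set gave 0.33 (adjusted p = 0.00128) and -0.35 (adjusted p = 0.000663). Without OHT it had 2489 in shFOXO707 cells and 1208 in shFOXO33 cells, on either side of the scrambled range of 1385 to 1588.

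FBN2, the fibrillin of developing tissues, went the other way. It had 1269 and 1334 in shFOXO707 cells and 3141 and 3162 in shFOXO33 cells with OHT, against 3013, 2910, 2717 and 2799 in scrambled cells with OHT. The difference was -1.13 with shFOXO707 (SE 0.05, adjusted p = 1.77e-10) and 0.14 with shFOXO33 (SE 0.05, adjusted p = 0.0337), and the second call was lost after median centring and when any of 4 single arrays was left out (adjusted p up to 0.139). Without OHT it had 1108 in shFOXO707 cells and 2799 in shFOXO33 cells, against 2518, 2415, 2416 and 2619 in scrambled cells. A second, dimmer FBN2 probe set gave -0.42 with shFOXO707 and -0.34 with shFOXO33, neither called (adjusted p = 0.122 and 0.205), so the gap between the hairpins was seen through 1 probe set.

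Several genes were low with shFOXO33 and near the scrambled level with shFOXO707. NID1, whose product links laminin to type IV collagen, had 866 and 1020 in shFOXO707 cells and 592 and 662 in shFOXO33 cells with OHT, against 1123, 1048, 915 and 969 in scrambled cells with OHT. The difference was -0.1 with shFOXO707 (adjusted p = 0.433) and -0.68 with shFOXO33 (SE 0.1, adjusted p = 4.47e-05). Its second probe set gave 0.01 and -0.5 (adjusted p = 0.971 and 0.00506). COL13A1 differed by 0.1 with shFOXO707 (adjusted p = 0.303) and by -0.57 with shFOXO33 (SE 0.07, adjusted p = 1.18e-05). LAMA5 differed by 0.11 with shFOXO707 (adjusted p = 0.346) and by -0.51 with shFOXO33 (SE 0.09, adjusted p = 0.000272). COL5A1 was lower with both, with a difference of -0.22 (SE 0.07, adjusted p = 0.0156) with shFOXO707 and of -0.5 (SE 0.07, adjusted p = 2.36e-05) with shFOXO33. The call with shFOXO707 was lost without its first array with OHT (adjusted p = 0.159).

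COL4A4, a type IV chain of the glomerular basement membrane, had 194 and 176 in shFOXO707 cells and 124 and 108 in shFOXO33 cells with OHT, against 216, 137, 181 and 140 in scrambled cells with OHT. The hairpins did not overlap, and shFOXO707 minus shFOXO33 was 0.61 (SE 0.19, adjusted p = 0.019), a call that was lost without shFOXO33 replicate 2 or without shFOXO707 replicate 1 with OHT (adjusted p up to 0.111). COL18A1, the precursor of endostatin, had 181 and 186 in shFOXO707 cells and 85.9 and 107 in shFOXO33 cells with OHT, against 128, 89.5, 181 and 142 in scrambled cells with OHT. The scrambled arrays spread over both hairpins, neither hairpin was called against them, and shFOXO707 minus shFOXO33 was 0.83 (SE 0.23, adjusted p = 0.00724). Without the first shFOXO33 array with OHT that adjusted p was 0.0655. COL6A3, COL11A1, COL16A1, COL3A1 and LAMB2 were also higher in shFOXO707 cells than in shFOXO33 cells, by 0.17 to 0.38. Of these, the calls of COL16A1, COL3A1 and LAMB2 were lost when a single hairpin array was left out, shFOXO33 replicate 1 with OHT among them, (adjusted p up to 0.198, 0.177 and 0.113).

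The head-to-head pair COL4A1 and COL4A2, the chains of the widespread type IV collagen, was lower with shFOXO707 than with shFOXO33. COL4A1 had 4356 and 4217 in shFOXO707 cells and 5943 and 5450 in shFOXO33 cells with OHT, against 5411, 5294, 5307 and 5442 in scrambled cells with OHT. COL4A2 had 4524 and 4372 in shFOXO707 cells and 5644 and 5404 in shFOXO33 cells with OHT, against 5219, 5021, 5147 and 5305 in scrambled cells with OHT. For both genes the shFOXO707 arrays stood below and the shFOXO33 arrays above all scrambled arrays. With shFOXO707 the difference was -0.32 for COL4A1 (SE 0.04, adjusted p = 3.05e-05) and -0.22 for COL4A2 (SE 0.04, adjusted p = 0.000555). With shFOXO33 it was 0.09 for each, with an adjusted p of 0.12 for COL4A1 and 0.0671 for COL4A2. The test between the hairpins gave -0.41 for COL4A1 (SE 0.05, adjusted p = 8.55e-06) and -0.31 for COL4A2 (SE 0.05, adjusted p = 6.41e-05). The second probe sets gave -0.69 (adjusted p = 4.69e-05) and -0.53 (adjusted p = 0.00041) for that test. COL4A3 and COL4A6, the partners of COL4A4 and COL4A5, did not pass the filter.

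COL1A2 had 88.2 and 128 in shFOXO707 cells and 131 and 181 in shFOXO33 cells with OHT, against 220, 135, 179 and 219 in scrambled cells with OHT. It fell by 0.71 with shFOXO707 (SE 0.23, adjusted p = 0.0197), a call that was lost without the first shFOXO707 array (adjusted p = 0.229), and its other probe set gave 0.06 (adjusted p = 0.898). FN1, fibronectin, was lower with shFOXO707 by 0.2 (SE 0.05, adjusted p = 0.00299), at 8781 and 8493 in shFOXO707 cells against 10530, 9650, 9349 and 10260 in scrambled cells with OHT. LAMC1, COL6A2 and AGRN were also lower in shFOXO707 cells than in shFOXO33 cells, by 0.16 to 0.29, and the calls of LAMC1 and COL6A2 were lost without single arrays (adjusted p up to 0.262 and 0.155). LAMB3 was lower with both hairpins, by 0.86 (SE 0.11, adjusted p = 2.65e-05) with shFOXO707 and by 0.42 (SE 0.11, adjusted p = 0.00668) with shFOXO33, and the second of these was lost without the second shFOXO33 array (adjusted p = 0.259). TNC did not differ between the hairpins past the test (-0.09, 95% interval -0.32 to 0.14).

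**Figure D4:**
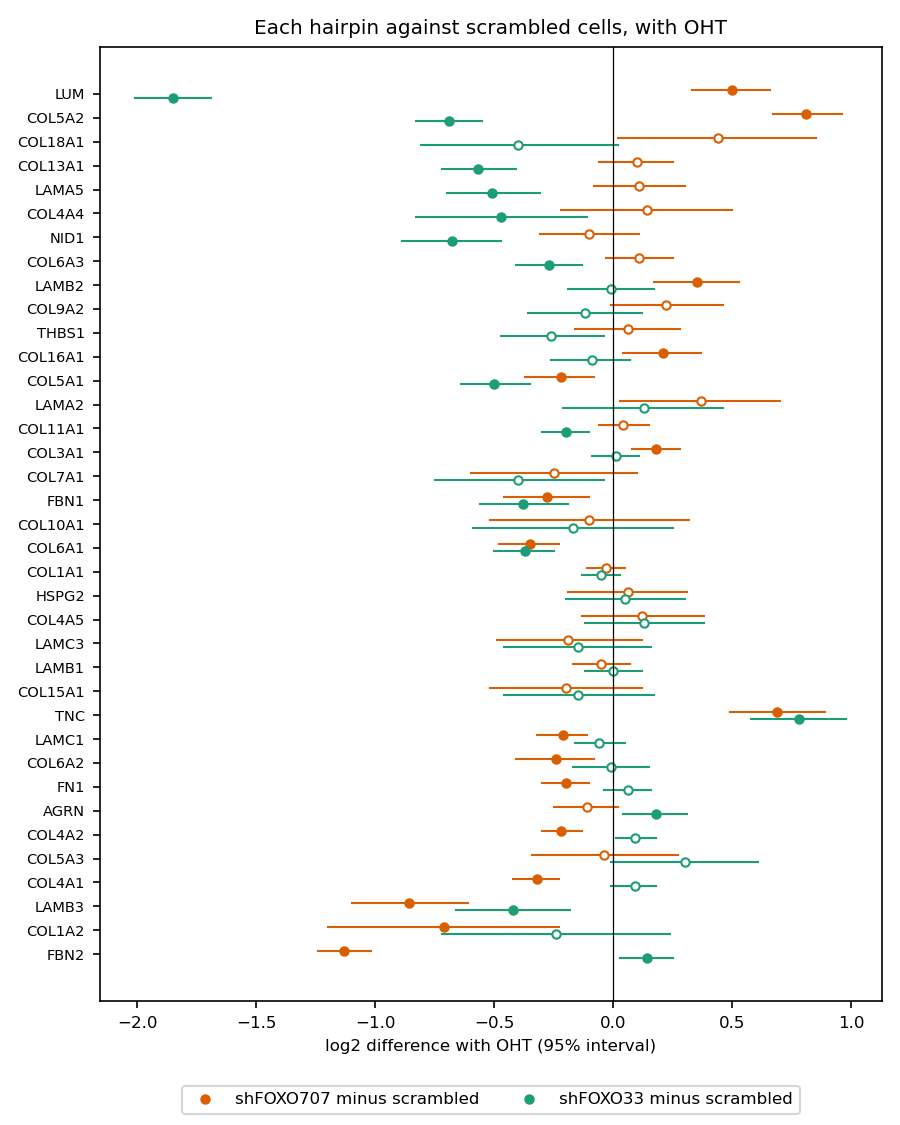
Log2 difference from scrambled cells with OHT for each of the 37 genes, orange for shFOXO707 and green for shFOXO33, with 95% intervals from the fit with 6 groups and filled points for adjusted p below 0.05. Genes are ordered by the difference between the hairpins, from LUM (2.35) at the top to FBN2 (-1.27) at the bottom, and TNC is high with both.

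Against scrambled cells, shFOXO33 gave 3 genes higher and 12 lower of the 37 (27.8% and 21.5% of all genes), with a median of -0.15 against 0.06 over all genes. The hairpin shFOXO707 gave 6 higher and 11 lower (24.6% and 17.2% of all genes), with a median of -0.04 against 0.05 over all genes. Under all 3 scalings 1 gene was called higher and 12 lower with shFOXO33 (23.9% and 20.7% of all genes), and 5 higher and 11 lower with shFOXO707 (19.4% and 16.8% of all genes). FBN2 and AGRN with shFOXO33 and COL16A1 with shFOXO707 were the calls that were lost.

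The arrays without OHT repeat the comparison of the hairpins on other arrays, with 1 array per hairpin and so no test. Of the 23 genes called between the hairpins with OHT, 22 had the same sign without OHT (95.7%), against 94.1% of such genes among all 7720. Over all 37 genes 31 had the same sign (83.8%, against 78.5% of all genes), and the 2 differences correlated at r = 0.92 and rho = 0.89 across these genes, which are not independent and share their arrays. LUM was 1.5, COL5A2 1.03, COL18A1 0.8 and FBN2 -1.32 without OHT. LAMA5 was 0.04 without OHT and 0.62 with OHT.

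**Figure D5:**
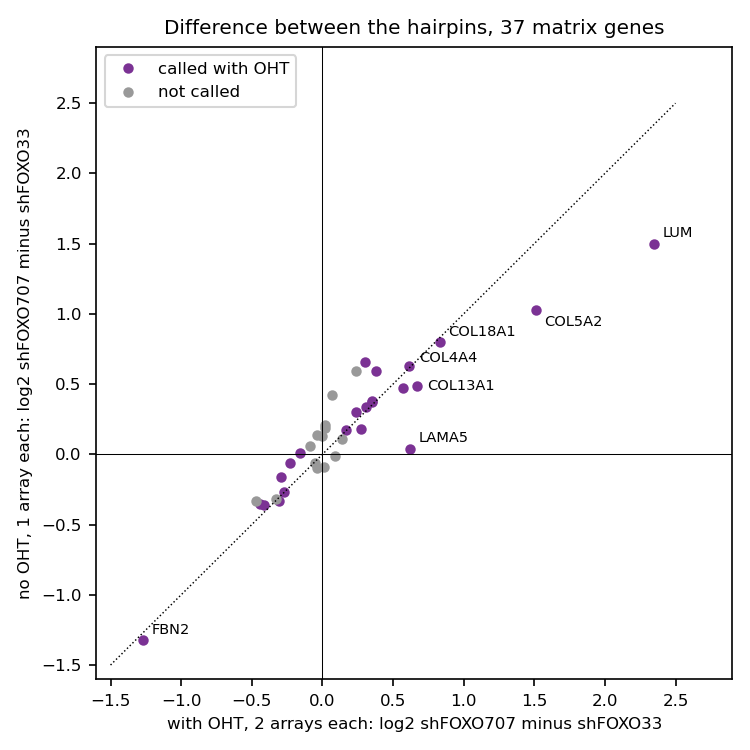
Log2 difference between the hairpins, shFOXO707 minus shFOXO33, with OHT (horizontal, 2 arrays each) and without OHT (vertical, 1 array each) for the 37 genes, purple where called with OHT. The dotted line marks equality, and LUM (2.35 with OHT, 1.5 without OHT), LAMA5 (0.62 and 0.04) and COL5A2 (1.51 and 1.03) lie below it.

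The genes that fold, process and cross-link collagen were read through a list of 31, of which 24 passed the filter. With OHT in scrambled cells 2 were higher and 8 lower, with a median of -0.07, against the 24% and 46.4% of all genes and their median of -0.23. Here and in the next 3 lists the balance depended on the scaling: for this list it turned to 7 higher and 2 lower with median-centred arrays (median 0.12) and was 4 and 5 with quantile normalization. SERPINH1, the collagen chaperone, fell by 0.58 (SE 0.06, adjusted p = 1.84e-06), and MIA3, which loads procollagen into transport vesicles, fell by 1.17 (SE 0.14, adjusted p = 5.92e-06). ADAMTS2, which removes the N-propeptide of procollagen, rose by 0.73 (SE 0.12, adjusted p = 7.84e-05). The fall of PLOD3, a lysyl hydroxylase, by 0.27 was not called under all scalings. With knockdown and OHT 4 of the 24 were higher and 0 lower (all genes, 14.7% and 8.01%). The higher ones were PLOD1 by 0.58 (adjusted p = 0.000107), PLOD3 by 0.51 (adjusted p = 0.000126), MIA3 by 0.51 (adjusted p = 0.0204) and SEC23A, a coat protein of the vesicles that carry procollagen, by 0.45 (adjusted p = 0.0125).

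TGF-beta induces many matrix genes. Of 23 genes for its ligands, receptors, latency proteins, SMADs and targets, 21 passed the filter, and with OHT in scrambled cells 5 were higher and 11 lower (all genes, 24% and 46.4%). With median-centred arrays 7 were higher and 6 lower, and with quantile normalization 6 and 7. CCN2, a target that binds the matrix, fell by 3.62 (SE 0.19, adjusted p = 1.03e-09), and CCN1 fell by 1.39 (adjusted p = 2.68e-07). SMAD6, an inhibitory SMAD, rose by 2.29 (adjusted p = 4.86e-09), and SMAD3, a signalling SMAD, rose by 1.49 (adjusted p = 1.96e-08). With knockdown and OHT 2 were higher and 3 lower (all genes, 14.7% and 8.01%). TGFB1 was higher by 0.46 (adjusted p = 0.00219), and LTBP2, TGFB2 and SMAD6 were lower by 0.3, 0.67 and 0.75 (adjusted p = 0.00104, 0.0018 and 0.00194).

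Of 23 receptors for collagen, laminin and fibronectin, 17 passed the filter, and with OHT in scrambled cells 3 were higher and 8 lower (all genes, 24% and 46.4%). With median-centred arrays 4 were higher and 3 lower, and with quantile normalization 4 and 6. DDR2, a collagen receptor kinase, fell by 1.62 (adjusted p = 1.38e-07), and CD44, which binds hyaluronan, fell by 0.61 (adjusted p = 1.12e-05). ITGB4, the laminin-binding integrin chain of hemidesmosomes, rose by 1.46 (adjusted p = 1.61e-07), and ITGAV rose by 0.78 (adjusted p = 4.12e-06). With knockdown and OHT 3 were higher and 2 lower (all genes, 14.7% and 8.01%). The collagen-binding ITGA2 was higher by 0.63 (adjusted p = 0.00425), ITGB1 by 0.2 (adjusted p = 0.00135) and CD44 by 0.33 (adjusted p = 0.00947), while SDC2 was lower by 0.39 (adjusted p = 0.00506).

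Of 33 other elastic fibre, matricellular and basement membrane genes, 14 passed the filter, and with OHT in scrambled cells 3 were higher and 4 lower (all genes, 24% and 46.4%). With median-centred arrays 4 were higher and 0 lower, and with quantile normalization 4 and 4. FBLN5, which helps to assemble elastic fibres, rose by 2.15 (SE 0.09, adjusted p = 2.12e-10), MATN3 by 1.06 (adjusted p = 1e-06) and THBS4 by 0.46 (adjusted p = 0.00761). The fall of EFEMP1 by 0.21 was not called under all scalings. With knockdown and OHT 3 were higher and 1 lower (all genes, 14.7% and 8.01%). MFAP2 was higher by 0.58 (adjusted p = 0.00148) and PXDN, which cross-links type IV collagen, by 0.27 (adjusted p = 0.0328), whereas FBLN5 was lower by 0.3 (adjusted p = 0.033). MATN2 was higher by 0.41 (adjusted p = 0.0479), and the PXDN and MATN2 calls did not hold under all scalings. SPARC, a collagen-binding matricellular protein of bone, is named after its values were seen. It differed from scrambled cells by -0.13 with shFOXO707 (SE 0.05, adjusted p = 0.0532) and by -3.43 with shFOXO33 (SE 0.05, adjusted p = 5.66e-16), both with OHT.

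The genes left out by the filter numbered 19: BGN, DCN, VCAN, THBS2, NID2, LAMA1, LAMA4, LAMB4, COL2A1, COL4A3, COL4A6, COL8A1, COL8A2, COL9A1, COL9A3, COL11A2, COL14A1, COL19A1 and COL21A1. Their signals ranged from 1.01 to 104 over the 14 arrays. COL11A2 lay just outside the filter at a mean of 6.56 on the log2(signal + 16) scale, and COL7A1 just inside at 6.82. Of the 37 genes that passed, COL5A3, COL7A1, HSPG2, LAMA2 and LAMC3 were called in none of the 8 comparisons under the deposited scaling. Their OHT responses in scrambled cells were -0.2 to 0.08. With the 6 groups kept apart and the hairpin effects averaged, however, 2 calls appeared. HSPG2 was lower with OHT in knockdown cells (-0.28, adjusted p = 0.0444), and LAMA2 was higher with knockdown without OHT (0.45, adjusted p = 0.0409). Quantile normalization called COL7A1 (0.35, adjusted p = 0.0284) and LAMC3 (0.27, adjusted p = 0.0374) higher with OHT in scrambled cells. It called COL7A1 lower with knockdown and OHT (-0.41, adjusted p = 0.0392) and with shFOXO33 and OHT (-0.46, adjusted p = 0.0328). A second COL7A1 probe set fell with OHT in scrambled cells (-0.37, adjusted p = 0.0361).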

How the data were processed

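RNA of 14 samples was labelled and hybridised to Affymetrix arrays, 1 array each. The authors deposited MAS5 intensity values (per the submitters' processing notes, with the version not given in the sources used here), and the 2% trimmed mean of every deposited column was 500. Each array's group came from its title. Probe sets annotated to 1 gene (19064 of 22277) were kept, while 1043 others named several genes and 2108 named none. Symbols were updated through Entrez IDs, and each gene was read through its probe set with the highest mean log2(signal + 16). Genes above the 40th percentile of that mean were tested with limma 3.58.1 in R 4.3.3 (lmFit, eBayes with trend, two-sided, Benjamini-Hochberg over 7720 genes). One fit pooled the hairpins in 4 groups, and another kept 6 groups for the hairpins. Members, lists and tests were chosen with earlier results of these data known.

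Every member past the filter could be named, and those called under 3 scalings at 0.5 log2 or more were given per array. From each other list, up to 4 called genes with the smallest adjusted p were named per comparison, for OHT in scrambled cells and for knockdown with OHT. Arrays of the same number did not deviate together (correlations of -0.06 to 0.05), so numbers were not used as pairs. Alternatives were other scalings, filters, pseudocounts, probe-set rules, single hairpins and leaving out each array. The test was run on simulated data first. Promoter windows came from RefSeq, and no background or detection calls were used. Array depth has no counterpart here, and the number of arrays sets the precision.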

Additional observations from a re-analysis of the deposited data

Results flagged for a closer look

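In 5 of 74 tests of a gene within a group of 4 arrays, 1 array stood apart from the other 3 by Dixon's criterion, and chance gives about 1 in 20. COL6A3 read 4520 on scrambled replicate 4 with OHT, against 5114 to 5234 on the others. LAMB1 read 1827 on scrambled replicate 3 with OHT, against 2023 to 2049. LAMC1 read 1294 on scrambled replicate 2 with OHT, against 1347 to 1353. COL9A2 read 398 and HSPG2 read 354 on scrambled replicate 3 without OHT, against 431 to 436 and 431 to 435 on the others. These arrays differ from gene to gene, except that COL9A2 and HSPG2 share 1 array.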

How the results depend on the processing

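Numbers of matrix genes called, of 37, moved most with the treatment of the hairpins. For OHT in scrambled cells, the fit with 6 groups called COL5A2, COL4A1, COL4A2, FBN2 and NID1 besides the 17 genes of the pooled fit. With 6 groups and the hairpin effects averaged, the counts were 21 for OHT in knockdown cells, 13 for knockdown with OHT, 15 for knockdown without OHT and 3 for the interaction, against 11, 5, 3 and 0 with the hairpins pooled. With only shFOXO33 arrays as knockdown they were 16 with OHT, 12 without OHT and 3 for the interaction, and with only shFOXO707 arrays 17, 16 and 2. Median centring left 6 calls for OHT in knockdown cells, and the mean of all probe sets of a gene left 3 for knockdown with OHT. Under the mean of all probe sets 3 signs turned: FBN2 with shFOXO33 (-0.1), LAMC1 with shFOXO707 (0.04) and THBS1 between the hairpins (-0.11). Median centring turned LAMC1 with OHT in scrambled cells (0.05). The cause was not tested beyond the wider spread when hairpins are pooled. Leaving out each array gave 15 to 17 calls for OHT in scrambled cells, 6 to 12 for OHT in knockdown cells (6 without the shFOXO707 array without OHT), 5 to 6 for knockdown with OHT, 2 to 4 for knockdown without OHT and 0 to 0 for the interaction. It gave 11 to 16 with shFOXO33, 12 to 17 with shFOXO707 and 14 to 23 between the hairpins (14 without shFOXO33 replicate 1 with OHT). The replicate block, which can only use replicates 1 and 2 of the knockdown arrays, left 0 calls for knockdown with OHT, and the same arrays without the block left 1, an alternative added after the data were seen. The numbers do not pair the arrays (correlations of -0.06 to 0.05). For OHT in scrambled cells, the SE in the fit with 6 groups was largest for COL1A2 (0.19), COL10A1 (0.16) and COL18A1 (0.16). With the hairpins pooled it was largest for LUM (0.5), COL5A2 (0.33) and FBN2 (0.31).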
